A study of Homo sapiens with 4 samples.

Results

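Histone lysine methylation is written by methyltransferases, nearly all of them with a SET domain, and removed by demethylases of the LSD and Jumonji classes. Methylation at H3K4 and H3K36 is known from active genes, methylation at H3K9 from silent chromatin, and the Jumonji enzymes need oxygen, iron and alpha-ketoglutarate. KDM1A (LSD1) and several Jumonji enzymes are known as cofactors of the androgen receptor in prostate cells. The genes described here are the protein-coding genes whose GENCODE 29 symbols begin with KMT2, KMT5, KDM, SETD, PRDM, EHMT, SUV39H or NSD (followed by a number where the prefix does not end in one), together with ASH1L, DOT1L, SMYD2, SMYD3 and SETDB1. They were chosen by name, with earlier results of these data known, and 64 of the 60308 gene identifiers in the tables matched. Of these 64 genes, 52 had enough reads for the test.

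RNA was sequenced from VCaP cells, an established prostate cancer line with a TMPRSS2-ERG fusion. One group was transfected with a non-targeting siRNA (siNTC) and the other with an siRNA against ZBTB7A (siZBTB7A), a zinc finger transcription factor, both in medium with 10% serum. Neither the sequence of the siRNA nor the time of harvest is given in the sources used here. Each group had 2 count tables, and the cells are otherwise the same line. The purpose of the RNA-seq was to find genes that ZBTB7A regulates.

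The tables held 5556061 to 5927656 gene reads each. Within a group the 2 tables differed by no more than read sampling, over all genes (chi-square per degree of freedom 0.993 in siNTC and 0.995 in siZBTB7A) and over the histone methylation genes alone (0.858 and 0.898, 52 genes). The sample titles number the 2 tables of a group R1 and R2. Because of their agreement they were counted as 1 sample, which is a reading of the counts and is not stated by the labels. All comparisons below are treated as 1 library with 1 library, with no replicate check, and no p-value here measures spread between cultures. "Called" means past the edgeR quasi-likelihood test at a Benjamini-Hochberg adjusted p under 0.05 over all 12848 tested genes, which says that the 2 libraries differed beyond counting error. CPM are gene reads scaled to library totals of 1e6 reads after TMM adjustment, folds are siZBTB7A over siNTC from the summed tables, and ranges in brackets are exact 95% intervals that cover counting error only.

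The siRNA's target was checked first. ZBTB7A was counted at 90 and 115 reads with siNTC, and with siZBTB7A at 70 and 74 reads. Its fold was 0.743 (0.596 to 0.924), which did not pass the test (edgeR adjusted p = 0.0969), so a knockdown was not established at this depth in the library labelled siZBTB7A. The 7 luminal and VCaP markers were all well counted, with 62323 and 60660 reads in all. Of these, 2 were called higher, namely KLK2 at a fold of 1.02 and HOXB13 at 1.08, and neither was called after a correction for GC content and length (1.002 and 1.05). HOXB13 was also not called without either siNTC table or without the second siZBTB7A table. Among other cell types, 4 leukocyte markers had 1 and 0 reads (3 of 4 at 0), and 2 endothelial markers 4 and 9 (CDH5 at 0). The 4 fibroblast markers had 191 and 158 reads, most of them of LUM, with COL1A2 at 0. Reads at no annotated exon on the counted strand took 20.6% of the siNTC library and 23.1% of the siZBTB7A library. The part of that shift in the results below was not tested.

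RNA was counted for methyltransferases of H3K4, H3K9, H3K36, H3K79 and H4K20 and for demethylases of H3K4, H3K9, H3K27 and H3K36. Per kilobase of the longest annotated transcript, KDM1A, the demethylase of H3K4 mono- and dimethylation, stood highest in the control library at 52.2 CPM per kb. KDM3B, SETD7 and KMT5B followed at 30.6, 30.1 and 30.0 CPM per kb, a difference smaller than that between tables of one library. KDM2A came next at 26.9, SETD3, an actin histidine methyltransferase, at 26.2, and NSD2, which makes H3K36 dimethylation, at 19.8 CPM per kb. The lowest tested genes were SETD1A at 0.777, KDM6B at 0.620 and PRDM11 at 0.562 CPM per kb. The expressed isoform was not determined, so the order among neighbours depends on the transcript taken for length.

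**Figure D1:**
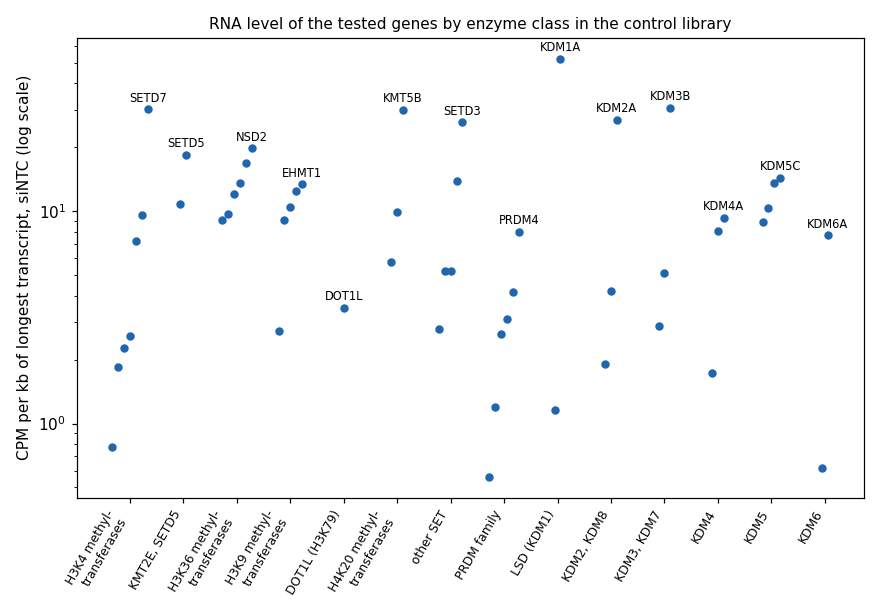
RNA level in the summed siNTC library of each of the 52 tested genes (points), as CPM per kb of the longest annotated transcript on a log axis, by enzyme class, with the highest gene of each class named. KDM1A stands highest at 52.2 and PRDM11 lowest at 0.562 CPM per kb.

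Expression was uneven within families. KDM1A stood at 52.2 CPM per kb and its relative KDM1B at 1.16. KDM6A, the X-linked H3K27 demethylase, stood at 7.69 and KDM6B at 0.620. Among the methyltransferases of the KMT2 group, KMT2C (9.56) and KMT2A (7.23) stood above KMT2B (2.58) and KMT2D (2.26 CPM per kb). The longest transcripts of KMT2B and KMT2D had 63.5% and 59.1% GC, and those of KMT2A and KMT2C 46.9% and 45.0%. KDM6B had more GC than KDM6A (62.4% and 43.5%), but KDM1B had less than KDM1A (41.6% and 50.8%). The part of GC content in these levels was not tested. The 4 KDM5 genes lay close together, from 8.90 for KDM5B to 14.4 for KDM5C.

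The 12 genes not tested were 9 of the 15 PRDM genes and KDM4D, KDM4E and KDM4F. No read was counted in any table for KDM4E, KDM4F, PRDM6, PRDM7, PRDM8 or PRDM14. A count of 0 allows up to 3 reads, or 0.255 CPM in siNTC and 0.270 CPM in siZBTB7A. PRDM13 and PRDM9 had 1 read each over the 4 tables and PRDM12 had 4. KDM4D had 6 and 3 reads in siNTC and 3 and 7 in siZBTB7A. PRDM16, known as a regulator of brown fat and stem cells, had 7 and 4 reads in siNTC and 8 and 11 in siZBTB7A. PRDM9, the meiotic H3K4 methyltransferase, and PRDM7 are near-identical copies, as are parts of KDM4D, KDM4E and KDM4F. Reads that fit several copies are not in these counts.

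Of the 52 tested genes, 4 were called lower in the siZBTB7A library and 0 higher. This is 7.69% of them, beside 4.97% called in either direction among all tested genes, 2.72% lower and 2.25% higher. The 52 genes were more abundant, with a median of 43.0 CPM in siNTC beside 23.3 CPM over all tested genes. A test of counting error detects smaller changes in genes with more reads, so the shares passing in this paragraph are not at equal depth. DESeq2 called 0 of the 52 and gave no adjusted p for 37 of them. Of the 4 called genes, KDM5B and KDM3A had no DESeq2 adjusted p, and SETD7 and KDM3B had 0.117 and 0.263. At an unadjusted p under 0.05, the edgeR test gave 9 of the 52, of which 0 were higher, where 17.9% of all tested genes passed in either direction and 8.90% were lower. DESeq2 gave 3 of the 52 at that threshold, of which 0 were higher. Of all 24914 genes it tested, which include those too shallow for the edgeR test, 2.44% passed. That share is therefore not on the same base as the 52. In the 4 fits that each left out 1 table, fewer genes were called over all tested genes, and as many or fewer of the 52. Fits with fewer reads lose calls in general, so a call lost in this way does not by itself set a gene apart. With all 4 tables, the called genes were the demethylase genes KDM5B, KDM3A and KDM3B and the methyltransferase gene SETD7. A 95% counting interval wholly below 1 was found for 9 of the 52 (17.3%) and one wholly above 1 for 0. Among all tested genes these shares were 8.52% and 8.54%. These were the same 9 genes that passed the edgeR test at an unadjusted p under 0.05. Both measures rest on counting error in the same reads, so the interval count is not a further result. The fold was below 1 in 36 of the 52, or 69.2%, where it was below 1 in 49.8% of all tested genes. Their median log2 fold was -0.05, beside 0.001 over all tested genes, a shift of about 4% in fold (median fold 0.964).

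KDM5B, which removes H3K4 di- and trimethylation and is known as overexpressed in prostate cancer, gave the clearest difference. It was counted at 93.2 and 91.0 CPM in the siNTC tables and at 81.2 and 68.8 CPM in the siZBTB7A tables. The groups did not overlap, and the second siZBTB7A table was the lowest. From 1083 and 833 summed reads the fold was 0.814 (0.743 to 0.892, edgeR adjusted p = 0.00141). Without the second siZBTB7A table KDM5B was not called (log2 fold -0.18, edgeR adjusted p = 0.269). Without the first it was called at a log2 fold of -0.42, where all 4 tables gave -0.30.

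KDM3A and KDM3B, paralogs that remove H3K9 mono- and dimethylation, were both called lower. KDM3A, a coactivator of the androgen receptor and a known hypoxia-induced gene, was at 42.9 and 46.1 CPM in siNTC and at 39.1 and 33.3 CPM in siZBTB7A. Its fold was 0.812 (0.711 to 0.926, edgeR adjusted p = 0.0450). KDM3B, more abundant, was at 212 and 205 CPM in siNTC and at 193 and 186 CPM in siZBTB7A. Its fold was 0.912 (0.860 to 0.967, edgeR adjusted p = 0.0403). In neither gene did the groups overlap. Both calls were near the threshold. KDM3A lost its call without either siNTC table or without the second siZBTB7A table (edgeR adjusted p = 0.0583, 0.307 and 0.501). KDM3B lost it without any 1 of the 4 tables (edgeR adjusted p from 0.0737 to 0.342). The third gene of this class, KDM7A, which acts on H3K9 and H3K27, was at 28.5 and 25.1 CPM and at 23.6 and 26.2 CPM. These groups overlapped, with a fold of 0.931 (0.789 to 1.10).

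SETD7, which monomethylates H3K4 and many non-histone proteins, was the called methyltransferase gene. It was at 216 and 227 CPM in siNTC and at 203 and 193 CPM in siZBTB7A, without overlap. The fold was 0.892 (0.843 to 0.944, edgeR adjusted p = 0.00426) from 2611 and 2201 reads. It was not called without the second siNTC table or without the second siZBTB7A table (edgeR adjusted p = 0.184 and 0.189). Across all 4 called genes the difference was at most about 19%.

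**Figure D2:**
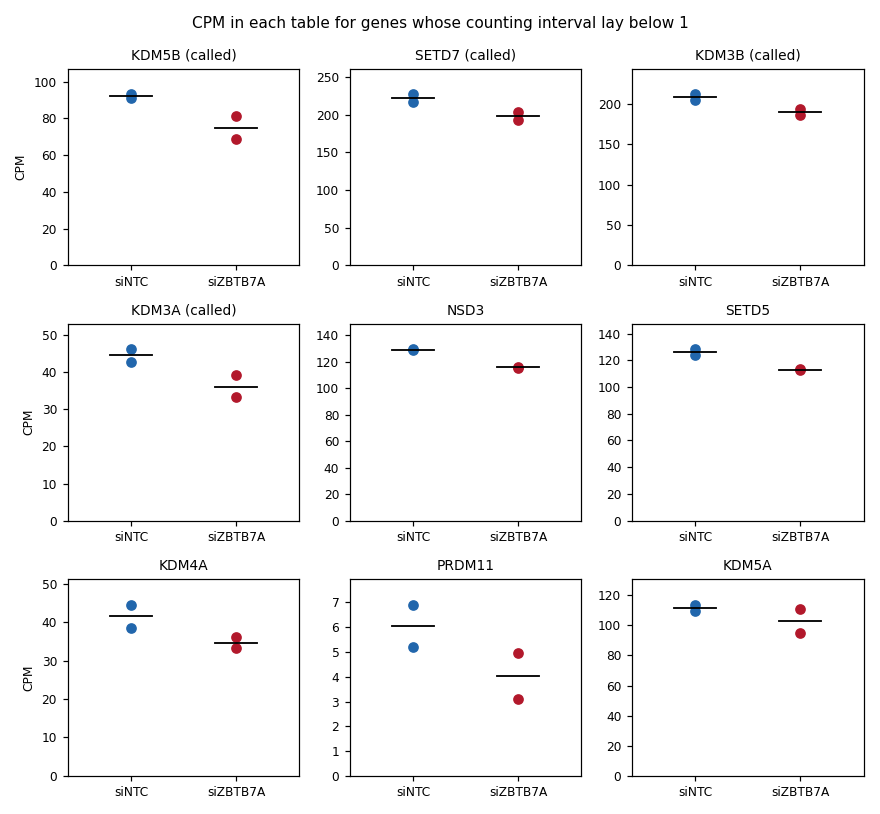
CPM in each table (points) of the 9 genes whose 95% counting interval lay wholly below 1, with the value of the summed tables as a line, for siNTC and siZBTB7A. The tables of the groups do not overlap in 8 of these genes, and in KDM5A they do, at 114 and 110 CPM against 111 and 94.8 CPM. The genes were picked by their summed counts, which by itself makes tables without overlap likely. Among all tested genes, not picked in this way, the siZBTB7A tables lay lower without overlap in 23.4%.

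Other genes with an interval below 1 did not pass the test. NSD3, an H3K36 methyltransferase gene, was at 129 and 129 CPM in siNTC and at 116 and 116 CPM in siZBTB7A, a fold of 0.897 (0.832 to 0.967, edgeR adjusted p = 0.0669). With unstranded counts it was called (edgeR adjusted p = 0.0175). Opposite-strand reads at NSD3 numbered 71 and 70 in siNTC and 46 and 61 in siZBTB7A. SETD5, a SET domain gene with no established histone methyltransferase activity, was at 128 and 124 CPM and at 113 and 113 CPM, with a fold of 0.898 (0.832 to 0.968, edgeR adjusted p = 0.0750). KDM4A, which removes H3K9 and H3K36 trimethylation, had a fold of 0.834 (0.728 to 0.955, edgeR adjusted p = 0.107). Non-overlapping tables were common among all tested genes: the siZBTB7A tables lay lower in 23.4% and higher in 23.5%. Among the histone methylation genes they lay lower in 18 of 52 (34.6%) and higher in 5 (9.62%).

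The demethylase genes were described together. Of 17 tested, 3 were called lower and 0 higher, the fold was below 1 in 14, and the median log2 fold was -0.10. Of all tested genes, 2.72% were called lower and 49.8% had a fold below 1. After the correction for GC content and length 13 of the 17 stood below 1, and the median log2 fold was -0.06. Their summed level was 1176 CPM in siNTC and 1116 CPM in siZBTB7A. DOT1L and the tested SET domain genes outside the PRDM family were 29 genes. Of these 29, 1 was called lower and 0 higher, the fold was below 1 in 20, and the median log2 fold was -0.05. After the correction 15 of the 29 stood below 1, with a median log2 fold of -0.005. In the KDM4 family the folds were 0.791 for KDM4C (0.573 to 1.09), 0.834 for KDM4A and 0.976 for KDM4B (0.862 to 1.10). Within the KDM5 family only KDM5B was called. KDM5A stood at 0.920 (0.849 to 0.996), KDM5C at 0.984 (0.901 to 1.08) and the Y-linked KDM5D at 1.03 (0.934 to 1.13). The fold of KDM5B was 0.827 times that of KDM5C (0.727 to 0.940) and 0.792 times that of KDM5D (0.694 to 0.905). Against KDM5A it was 0.885 times (0.783 to 0.9999), an interval that just excluded 1. KDM5B was set against the others as the called gene with the lowest fold of its family. That choice favours ratios below 1, so these intervals are no separate evidence that KDM5B differed from its family. Without the first siZBTB7A table KDM5A was itself called lower, at a log2 fold of -0.24 (edgeR adjusted p = 0.04997).

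The remaining demethylase genes were not called. KDM1A was at 157 and 162 CPM in siNTC and at 161 and 157 CPM in siZBTB7A, a fold of 0.996 (0.933 to 1.06). From 1879 and 1769 reads, its counting interval allowed a change of at most about 7%. KDM2A, an H3K36 demethylase that binds CpG islands, was at 1.04 (0.976 to 1.10) and KDM2B at 0.969 (0.827 to 1.14). KDM6A was at 0.999 (0.883 to 1.13). KDM1B had 52 and 37 reads, KDM8 55 and 36, and KDM6B 49 and 52. Their intervals ran from 0.480 to 1.17, from 0.442 to 1.07 and from 0.745 to 1.69, so a difference as large as that of KDM5B was not detectable at this depth.

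Among the methyltransferase genes, those for H3K4 mostly had folds below 1 and those for H3K9 had none below 1. Of 7 H3K4 genes, 6 had a fold below 1, where 49.8% of all tested genes did, and 1 was called, SETD7. After the GC and length correction 4 of the 7 stood below 1, with KMT2A at 1.04 and KMT2C at 1.06, and the median log2 fold went from -0.11 to -0.04. KMT2A, the MLL gene, was at 0.965 (0.895 to 1.04) and KMT2C at 0.981 (0.919 to 1.05). KMT2D was at 0.929 (0.817 to 1.06), KMT2B at 0.844 (0.699 to 1.02), SETD1B at 0.910 (0.728 to 1.14) and SETD1A at 1.08 (0.739 to 1.57). KMT2C shares sequence with partial copies elsewhere in the genome, so its count is uncertain. The 5 genes for H3K9 methylation all had folds between 1.01 and 1.07: SETDB1, EHMT1, SUV39H1, SUV39H2 and EHMT2. Of these, 0 of 5 were called, where 4.97% of all tested genes were called in either direction. Every one of these 5 intervals held 1. The log2 fold turned negative with unstranded counts in EHMT1 and SUV39H2 (-0.01 in each) and in SETDB1 (-0.02). SUV39H1 stood at 0.987 after a correction for GC content and length. EHMT1, SUV39H1 and SUV39H2 had a fold below 1 in some fits that left out 1 table, and EHMT2 and SETDB1 in none of those 4 fits. EHMT2 (G9a) had the highest of these folds, at 1.07 (0.947 to 1.22).

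The H3K36 genes had 0 of 6 called, where 4.97% of all tested genes were called in either direction. Folds ran from 0.897 for NSD3 to 1.09 for SMYD2 (0.960 to 1.23). SETD2, which makes H3K36 trimethylation, was at 0.958 (0.885 to 1.04), NSD1 at 0.960 (0.907 to 1.02), NSD2 at 1.02 (0.953 to 1.08) and ASH1L at 0.997 (0.923 to 1.08). DOT1L, the H3K79 methyltransferase, was at 25.9 and 26.2 CPM in siNTC and at 30.5 and 29.9 CPM in siZBTB7A. Its tables did not overlap, but the fold of 1.16 (0.989 to 1.36) was not called (edgeR adjusted p = 0.313). Among the 52 histone methylation genes it was the second highest fold, after PRDM1 at 1.23 (0.891 to 1.71), the gene of the repressor BLIMP1.

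For H4K20 methylation, KMT5B was at 0.963 (0.904 to 1.03), KMT5A at 0.954 (0.819 to 1.11) and KMT5C at 0.910 (0.718 to 1.153). The other SET domain genes SETD3, SETD4, SETD6, SETD9 and SMYD3 had folds from 0.899 to 0.973 and 0 of 5 were called. SETD6 was the tested gene with the most opposite-strand reads, 109 and 135 in siNTC against 100 and 111 on its own strand, so its unstranded count mixes both. In the PRDM family 0 of 6 were called. Among all tested genes 4.97% were called in either direction, so classes this small may hold no call. PRDM11 had the lowest fold, 0.671 (0.451 to 0.988), but from 71 and 45 reads (edgeR adjusted p = 0.240). PRDM4 was at 1.03 (0.897 to 1.19), PRDM10 at 1.09 (0.926 to 1.27) PRDM2 at 1.07 (0.895 to 1.28) and PRDM15 at 0.943 (0.786 to 1.13). KMT2E, a relative of KMT2A with no established methyltransferase activity, was at 0.961 (0.872 to 1.06).

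**Figure D3:**
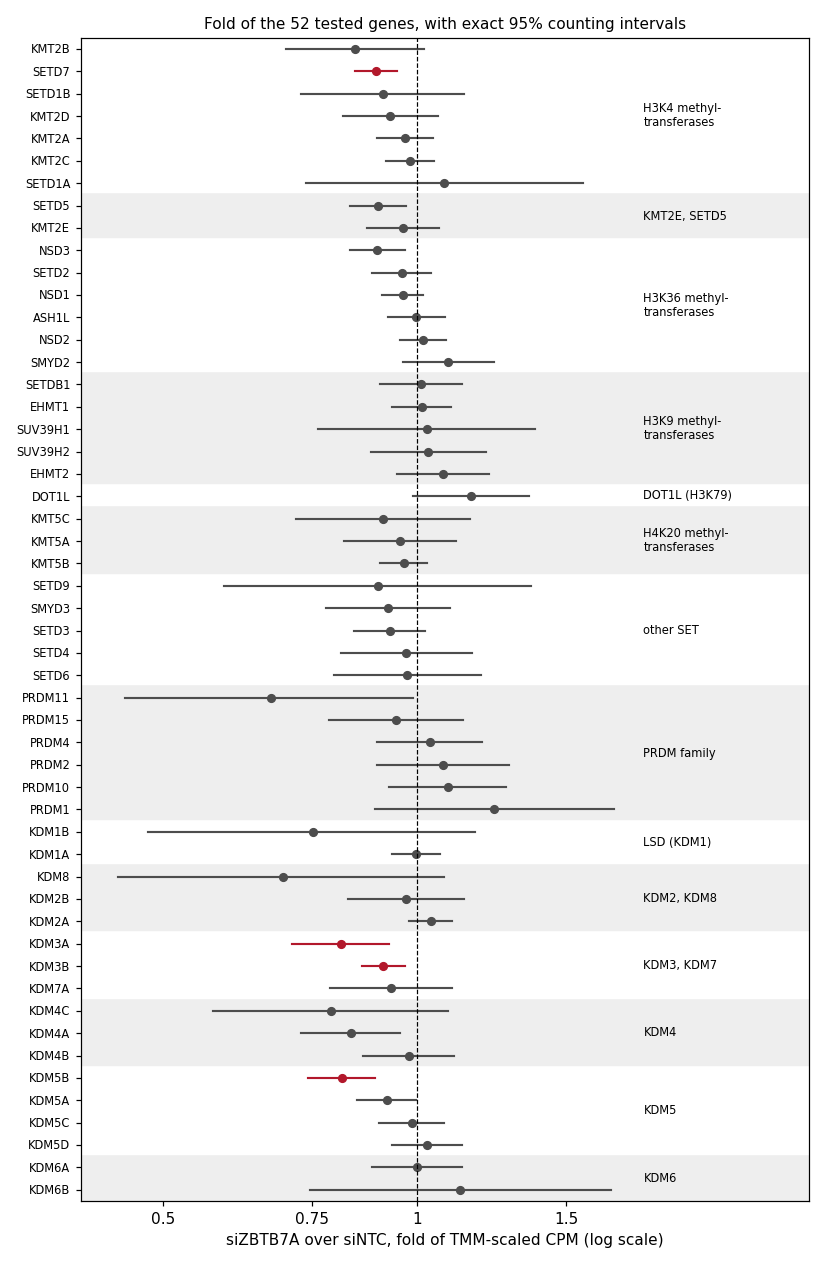
Fold of siZBTB7A over siNTC (points, log axis) with exact 95% counting intervals (bars) for the 52 tested genes by enzyme class, with the 4 genes called lower in red. KDM5B, KDM3A, KDM3B and SETD7 lie between 0.812 and 0.912, and no interval lies wholly above 1.

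Paralogs were set side by side by the ratio of their folds. Of 12 pairs, 11 had a 95% interval that held 1, and the other was KDM5A and KDM5B. KDM3A stood at 0.891 times the fold of KDM3B (0.770 to 1.03). EHMT1 stood at 0.942 times EHMT2 (0.812 to 1.09), and NSD1 at 0.946 times NSD2 (0.868 to 1.03). KMT2A stood at 1.14 times KMT2B (0.933 to 1.402). These intervals leave room for moderate differences between paralogs and do not show that they behaved alike.

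These genes have long transcripts, and transcript length and GC content moved with the fold over all genes. Their longest transcripts had a median of 6564 bases, beside 3628 over all tested genes, and a median GC content of 48.4%, beside 48.0%. Across 7452 genes with at least 400 reads, Spearman's rho of the fold was 0.30 with GC content and -0.28 with length. Across the 41 histone methylation genes with as many reads it was 0.26 and -0.26. Over all 52 tested histone methylation genes it was 0.20 and -0.10, and over all 12788 tested genes with a GC content and length 0.23 and -0.16. Both are descriptions across genes of the same 2 libraries, and genes are not independent replicates. A spline on GC content and length over all tested genes predicted a median log2 fold of -0.01 for the 52 genes. After this correction their median log2 fold was -0.03, and 30 of 52 lay below 1.

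The correction moved the called genes toward 1 without removing the direction. KDM5B went from 0.814 to 0.857 and was still called (edgeR adjusted p = 0.0446). KDM3A went from 0.812 to 0.854, SETD7 from 0.892 to 0.924 and KDM3B from 0.912 to 0.919, and none of these 3 was called (edgeR adjusted p = 0.206, 0.117 and 0.0940). In 51 of the 52 genes the corrected fold lay inside the counting interval of the uncorrected one, and the exception was KMT2C, which went from 0.981 to 1.06.

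**Figure D4:**
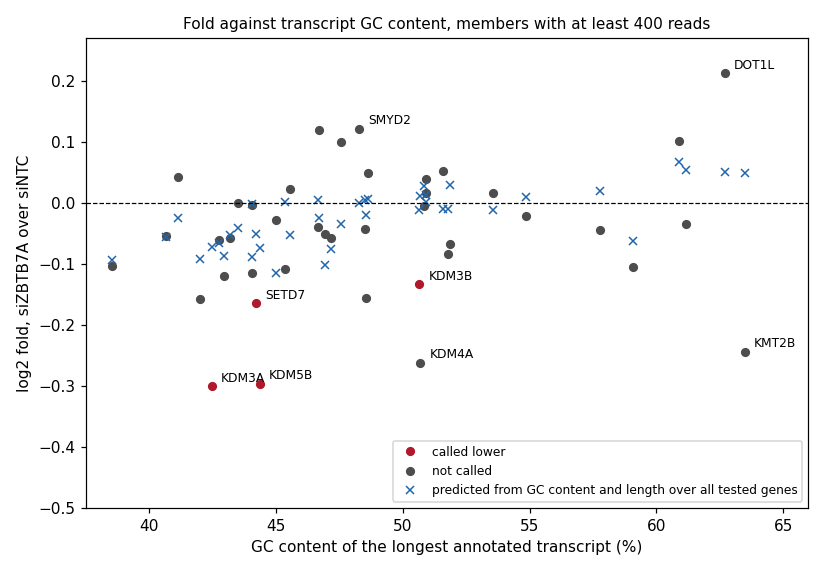
Log2 fold against the GC content of the longest annotated transcript for the 41 genes with at least 400 reads (circles, called genes in red), with the log2 fold that GC content and length predict over all tested genes (crosses). KDM5B and KDM3A, at 44.4% and 42.5% GC, lie near -0.30, below their predicted values of -0.08 and -0.07.

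Promoter letters were read for the called genes because KDM3A and KDM5B are known hypoxia-induced genes. The 250 bases upstream of the RefSeq start were searched on both strands for ACGTG and GCGTG, the core of the hypoxia response element, in the RefSeq table of build GRCh38.p14. Of the 52 tested genes 49 had an entry. The core was present in KDM3A and KDM5B and in neither KDM3B nor SETD7. The matches are shown with the core in capitals, 12 bases on each side, 5′ to 3′ on the gene's strand, 26 and 64 bases upstream of the start at chr2:86441333-86441361 (plus strand) and chr1:202808469-202808497 (minus strand).
KDM3A: ccgggaggctgtGCGTGtcttgtgagagc
KDM5B: cggaggcgcacgGCGTGggcttgcggcga

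The core is a common string: it was present in 36 of the 49 windows (73.5%), in 58.8% of the 9336 windows of tested protein-coding genes and in 43.1% of all 27305 windows. A GC box (GGGCGG) was present in KDM3A, KDM3B and KDM5B and not in SETD7, and in 36 of the 49 (73.5%) and 68.9% of the tested protein-coding genes. These matches describe letters and do not show that a factor binds.

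Genes that work with these enzymes were taken from 9 lists of 99 genes, of which 96 were tested. Of the 96, 4 were called higher (4.17%) and 5 lower (5.21%), beside 2.25% and 2.72% of all tested genes. The lists were chosen with earlier results of these data known. Their shares may therefore depend on the choice and are no evidence about these partners as a class. Among subunits of the COMPASS complexes, which hold the KMT2 and SETD1 enzymes, 0 of 13 were called (median log2 fold -0.02). Partners of KDM1A in the CoREST complex had 1 of 11 called, ZMYM2, lower at 0.918 (0.869 to 0.970). It was not called without any 1 of the 4 tables, nor after the GC and length correction, at 0.987 (edgeR adjusted p = 0.882). In the list of H3K9 methylation partners 2 of 13 were called lower and 1 higher. CBX5, which encodes the H3K9 methyl reader HP1 alpha, had 971 and 1078 reads in siNTC and 758 and 796 in siZBTB7A. At a fold of 0.803 (0.751 to 0.858, edgeR adjusted p = 2.03e-07), it passed after the GC and length correction too, at 0.860. FAM208A, a HUSH complex gene, was lower at 0.892 (0.837 to 0.951), and TRIM28, the KAP1 corepressor that recruits SETDB1, was higher at 1.12 (1.07 to 1.17). After the correction neither was called, with FAM208A at 0.943 and TRIM28 at 1.04. FAM208A also lost its call without the first siNTC or the second siZBTB7A table.

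Among H3K36 and H3K79 readers and partners, 2 of 15 were called higher and 2 lower, beside 2.25% and 2.72% of all tested genes. The elongation factor genes AFF1 and AFF4 were lower, at 0.885 (0.840 to 0.932) and 0.872 (0.814 to 0.933). MLLT1, which encodes an acetyl-lysine reader in the same elongation complexes, was higher at 1.26 (1.10 to 1.46), and PHF19, an H3K36 methyl reader, at 1.19 (1.08 to 1.32). After the correction none of these 4 was called, with AFF1 at 0.924, AFF4 at 0.926, MLLT1 at 1.19 and PHF19 at 1.16. AFF1 kept its call without any 1 table. AFF4 lost it without the first siNTC or the second siZBTB7A table, PHF19 without each table but the second siNTC table, and MLLT1 without any 1 of the 4. The list on supply of methyl donor and alpha-ketoglutarate had 1 of 8 called, AHCY, which clears S-adenosylhomocysteine, higher at 1.12 (1.07 to 1.18) and at 1.08 after the correction, where it was still called. No gene was called among 6 other lysine methyltransferases, 8 arginine methyltransferases, 10 histone acetyltransferases and 12 deacetylases. Of all tested genes 4.97% were called in either direction, so lists this small may hold no call.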

How the data were processed

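RNA-seq was measured in 4 tables of VCaP cells. The authors deposited raw read counts per gene, with no normalization. Per the submitters' processing notes, STAR 2.4.2a and the builds hg19 and GRCh37 were used; per the labels' protocols, the kit was stranded. For the annotation, the release was not given in the sources used here. GENCODE 29, on another build, gave names, classes, and the GC content and length of the longest transcript. The counts of column 4 were used, where gene reads exceeded those of the other strand by 24.9 to 25.5 times. Rows naming no gene (50.8% to 51.2% of reads) were left out.

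Genes were tested with edgeR 4.0.16 in R 4.3.3 (robust quasi-likelihood test, TMM, filterByExpr, group only). Alternatives used DESeq2 1.42.0 and limma 3.58.1. The test was checked on simulated counts that held read sampling only, with no spread between cultures. The changes simulated were larger than those of the called histone methylation genes.

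The members and lists were chosen with earlier results of these data known. Values were given for ZBTB7A, every called member, the most abundant member of each class, the 5 highest and 5 lowest folds among members with at least 100 reads, 12 paralog pairs, and up to 4 called genes of each partner list. Other members were named to account for the class, and 1 untested member is not reported here. Python 3.11.15, scipy 1.17.1 and pandas 2.3.3 were used elsewhere.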

Additional observations from a re-analysis of the deposited data

Results flagged for a closer look

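One signal lay outside the comparison of gene counts. Reads at no annotated exon on the counted strand made up 23.1% of the siZBTB7A library, above the 20.6% in siNTC. Both siZBTB7A tables lay above both siNTC tables. The part of these reads in the folds was not tested.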

How the results depend on the processing

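With each group counted as 1 library, none of these settings measures spread between cultures. Where a table is left out, the lone table is assumed to vary like the other group. The count of 4 genes called lower was the same with DESeq2 size factors, limma-voom, an exact binomial test on summed counts, a 1 CPM filter, protein-coding genes only and the replicate block (4 lower, 0 higher, 654 genes called in all). No setting called any of the 52 genes higher, and DESeq2 gave no adjusted p for KDM5B or KDM3A. With unstranded counts the number called lower was 5, with NSD3 added. It was 2 with no filter on low counts, 1 with the GC content and length correction, 0 with an assumed replicate CV of 10%, 0 with DESeq2 (which gave no adjusted p for 37 of the 52) and 0 to 4 when a table was left out. Of all genes, 639 were called, 114 with DESeq2, 379 with the correction, 1 with the assumed CV and 303 to 373 when a table was left out. The median log2 fold, -0.05, was -0.043 with unstranded counts, -0.032 with the correction and -0.071 to -0.032 when a table was left out. Of 920 values of the 64 genes given with a fold (the 52, ZBTB7A, and the called partners and markers), 811 kept their direction and side of the threshold. Another 65 lost the call, 2 gained it (KDM5A and NSD3) and 42 changed sign without a call in either setting. Same-numbered tables did not deviate together (correlation -0.02 over 7461 genes), so the numbers were not taken as pairs. The interval count was added after the data were seen. Depth was lowest for KDM1B, KDM8, SETD9, KDM6B, PRDM11 and SETD1A.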
